A study of Mus musculus with 12 samples.

Results

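The 31 genes described here encode the enzymes, carriers and electron acceptors of fatty acid oxidation in liver, 16 of them mitochondrial, 9 peroxisomal and 6 with products in both compartments. The rule picked them by name from the 36228 gene names of the count table and used no measured value, although earlier results of these data were known when the group was proposed. Liver RNA of 7 wild type (WT) mice, 4 female and 3 male, and of 5 mice with a germ-line deletion of Idh2 (IDH2 KO), 3 female and 2 male, was sequenced with 1 library per mouse. All mice were C57BL/6N, the WT mice were littermates of the IDH2 KO mice, no mouse received a treatment, and all were killed at 8 to 10 weeks of age. IDH2 is the mitochondrial isocitrate dehydrogenase that makes NADPH, and a germ-line deletion removes it from every cell, so that the liver was not the only tissue without it. Libraries are named below by genotype, sex and replicate number.

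Fatty acids are oxidised in the liver by a repeated cycle of dehydrogenation, hydration, a further dehydrogenation and cleavage by a thiolase, in which each turn releases acetyl-CoA. In mitochondria, the carnitine palmitoyltransferases Cpt1a and Cpt2 bring long chains across the membranes, acyl-CoA dehydrogenases pass electrons to the electron transfer flavoprotein (Etfa and Etfb) and its dehydrogenase Etfdh, and the trifunctional protein (Hadha and Hadhb) carries out the later steps on long chains. Peroxisomes shorten very long, branched and dicarboxylic chains with their own hydratase and dehydrogenase proteins (Ehhadh and Hsd17b4) and thiolases (Acaa1a, Acaa1b and Scp2), and pass shortened chains on with the help of the carnitine octanoyltransferase Crot. The receptor PPARα, encoded by Ppara, turns on many of these genes in fasting.

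The mitochondrial enzymes dominated the reads of the group. Levels were taken as reads per kb of the longest coding transcript, scaled to library totals (RPKM), as the mean of the 12 libraries. The highest was that of Acaa2, the mitochondrial thiolase, at 471, followed by Etfa at 248 and Acadvl, the very long chain acyl-CoA dehydrogenase, at 228. The highest peroxisomal member was Hsd17b4, the bifunctional protein for branched and very long chains, at 187, followed by Crot at 62.7 and Decr2, the peroxisomal dienoyl-CoA reductase, at 35.9. Among the members of both compartments Acad11, an acyl-CoA dehydrogenase that also acts on hydroxy acids, stood at 90.5, Amacr, the racemase that prepares branched chains, at 12.7 and Eci2, an enoyl-CoA isomerase, at 12.1. These levels ranked the members only in the mean of the 12 libraries.

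**Figure D1:**
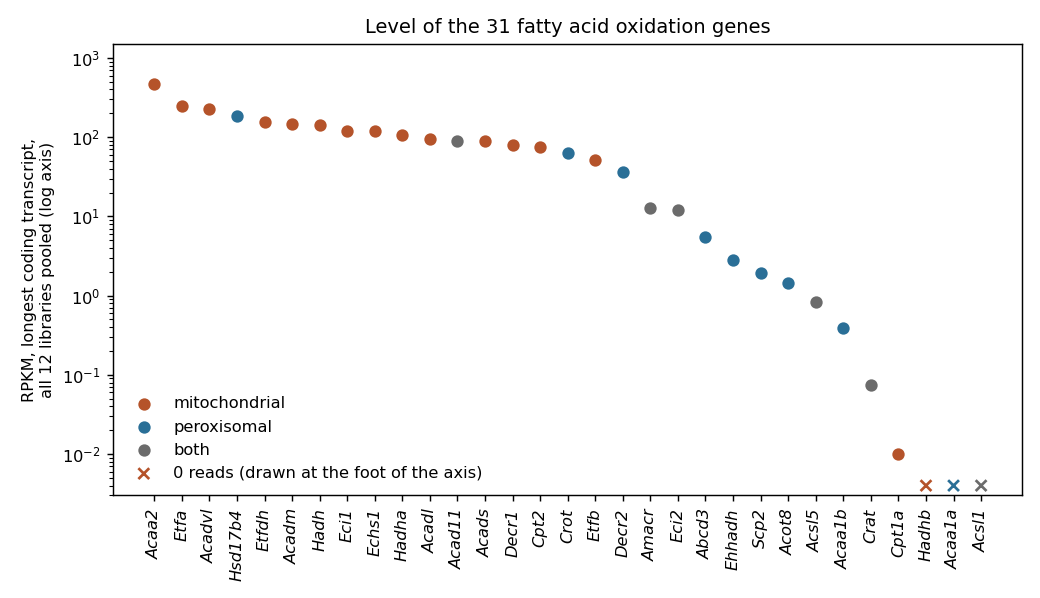
RPKM over the longest coding transcript (log axis, mean of the 12 libraries, which the axis label calls pooled) for the 31 members in order of level, coloured by compartment, with members at 0 reads drawn as crosses at the foot of the axis. Acaa2 leads at 471 and the mitochondrial members fill most of the upper ranks, while most peroxisomal members other than Hsd17b4, Crot and Decr2 lie under 10.

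Of the 31 members, 26 passed the filter on low counts in the comparison of genotypes and 27 in the fit of the 4 groups of genotype and sex, which also kept Acaa1b. Hadhb, Acaa1a, one of a pair of near-identical peroxisomal thiolase genes, and Acsl1, a long chain acyl-CoA synthetase, were listed at 0 reads in all 12 libraries, which allows a pooled level of up to 0.0124 RPM by counting error alone. Cpt1a had 10 reads, all in WT libraries, and Acaa1b, the other gene of the thiolase pair, had 141. These reads followed the number of RefSeq transcripts of a gene. The 15 members with 1 transcript had a median of 71954 reads over the 12 libraries and a minimum of 32177, the 8 members with 2 had a median of 6213.5, and the 8 with 3 or more had a median of 42, with 3 of them at 0 reads and 3 past the filter. Transcript number also went with compartment. Every tested mitochondrial member except Etfb had 1 transcript, and every tested peroxisomal member except Hsd17b4 had 2 or more. Differences between the compartments in level and spread therefore cannot be told apart from transcript number. How the authors counted reads shared by several transcripts was not given in any source used, and its part in these levels was not tested. For this reason a level of 0 is given here as a reading of the table and not as absence of the transcript.

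The subunits of the trifunctional protein showed the widest gap of this kind. Hadha (GRCm38 chr5:30118304-30155162, minus strand, 1 RefSeq transcript) had 103874 reads over the 12 libraries, whereas its partner Hadhb (chr5:30155248-30184593, plus strand, 4 transcripts) had 0. The genes stand head to head and their promoter windows share 228 bases (chr5:30155003-30155230). The windows printed here run from 250 bases before to 50 bases after a gene start in RefSeq (GRCm38.p6), are written 5′ to 3′ on the strand of the gene, and are shown for Hadhb because of this gap, for Scp2 because it was the member that differed most between groups, and for Ehhadh because it was at 0 reads in a single library. Capitals mark GGGCGG or its reverse complement CCGCCC, the GC box bound by factors of the Sp family, and AGGTCA, the half-site of many nuclear receptors including PPARα. The Hadhb window is chr5:30155003-30155302 on the plus strand, the Scp2 window chr4:108118498-108118797 on the minus strand, and the Ehhadh window chr16:21787785-21788084 on the minus strand. The Scp2 window is that of the RefSeq start, which lies inside the longer span of the gene in GENCODE.
Hadhb: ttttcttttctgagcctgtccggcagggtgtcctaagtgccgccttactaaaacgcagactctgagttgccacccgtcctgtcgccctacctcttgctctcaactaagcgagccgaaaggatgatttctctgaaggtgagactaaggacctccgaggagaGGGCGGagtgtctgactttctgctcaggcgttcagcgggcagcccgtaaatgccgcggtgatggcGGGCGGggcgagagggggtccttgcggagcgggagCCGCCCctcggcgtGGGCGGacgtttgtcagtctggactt
Scp2: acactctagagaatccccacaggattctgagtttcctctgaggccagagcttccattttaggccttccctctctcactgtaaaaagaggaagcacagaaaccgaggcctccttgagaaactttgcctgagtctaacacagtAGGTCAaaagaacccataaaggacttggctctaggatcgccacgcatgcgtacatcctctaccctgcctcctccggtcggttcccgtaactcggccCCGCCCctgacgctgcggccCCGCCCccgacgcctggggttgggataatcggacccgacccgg
Ehhadh: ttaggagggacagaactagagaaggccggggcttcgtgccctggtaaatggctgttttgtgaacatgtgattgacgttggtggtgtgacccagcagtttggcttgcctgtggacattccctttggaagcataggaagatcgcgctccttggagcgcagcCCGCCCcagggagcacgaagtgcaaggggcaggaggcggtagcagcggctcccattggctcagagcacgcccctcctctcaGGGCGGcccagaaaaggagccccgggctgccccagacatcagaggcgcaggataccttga
The Hadhb window held 4 GC boxes, the Scp2 window held 2 and 1 AGGTCA, and the Ehhadh window held 2 GC boxes.

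RefSeq windows were found for 26 of the 31 members. GGGCGG, on either strand, occurred in the windows of 20 of these 26 members (76.9%), compared with 49.2% of the 17491 protein-coding genes with a window and 35.7% of all 32851 windows. AGGTCA, on either strand, occurred in 5 (19.2%), namely Acadm, Acadvl, Cpt1a, Echs1 and Scp2, compared with 16.7% of the protein-coding genes. The PPAR-type direct repeat AGGNCANAGGNCA, which can overlap AGGTCA, occurred in 0 of the 26 and in 0.423% of the protein-coding genes, and TATAAA in 0 and 14.8%. These are matches of letters in a window of 300 bases and were not tested as sites.

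The libraries held 15323300 to 25019649 reads, of which 22.8 to 50.4% came from the mitochondrial genome and 0.394 to 0.845% from the 31 members. Idh2 had 967 to 2363 reads in the WT libraries and 1 to 7 in the IDH2 KO libraries, so that every library matched its genotype label. Xist had 58 to 367 reads in the libraries of females and 0 to 4 in those of males, and the Y-linked gene Eif2s3y had 0 in females and 85 to 187 in males, so that every library also matched its sex label. Hepatocyte markers summed to 115000 to 220000 CPM (reads relative to library size, scaled by TMM) in WT and 76200 to 240000 in IDH2 KO libraries, with Cps1 at 0 reads throughout. IDH2 KO female 3 stood apart, with reads on 8531 genes against 10482 to 12873 in the other libraries, although RNA integrity numbers were between 8.5 and 9.5 for all samples. It was the lowest of the 12 libraries for 36.0% of the 7618 genes tested and the highest for 25.0%. Values without it are given below beside those that it changed. In bulk liver RNA, fewer cells of a type and less RNA per cell cannot be told apart.

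The first question was whether loss of IDH2 altered the expression of these genes. None of the 26 members tested was called between IDH2 KO and WT at an adjusted p under 0.05, where 29 of 7618 genes (0.381%) were. At an unadjusted p under 0.05, 1 of the 26 (Scp2) passed, compared with 6.71% of all genes. DESeq2 called 1 member, Scp2, and edgeR without a filter on low counts called the same member. Both settings also called more genes in all than the main fit, with counts given in the closing section. The median log2 fold change was -0.05 over the 26 members, 0.11 over the 14 mitochondrial, -0.22 over the 7 peroxisomal and -0.06 over the 5 of both compartments, compared with 0 over all genes. When IDH2 KO female 3 was left out, 0 of 27 members were called (all genes 0.407%), Scp2 and Acadm were at an unadjusted p under 0.05 (all genes 9.81%), and the medians were 0.04 over all members, 0.04 over the mitochondrial, -0.13 over the peroxisomal and 0.13 over those of both compartments. Acaa1b entered that fit but not the fit of all 12 libraries, so the medians over all and over peroxisomal members are of different sets. Without WT male 2 the same medians were 0.02, 0.14, -0.07 and -0.06. The signs of these medians thus rested on single libraries for all members together and for those of both compartments. Of the markers of other cells, 4 of 5 tested lymphocyte genes and 4 of 5 erythroid genes were higher in IDH2 KO at an unadjusted p under 0.05 in the same fit. Lymphocyte markers summed to 2.47 to 7.94 CPM in WT and 7.36 to 42.6 in IDH2 KO, with Cd3e at 0, and erythroid markers to 16.5 to 140 and 33.5 to 306. Their part in the values of the members was not tested.

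**Figure D2:**
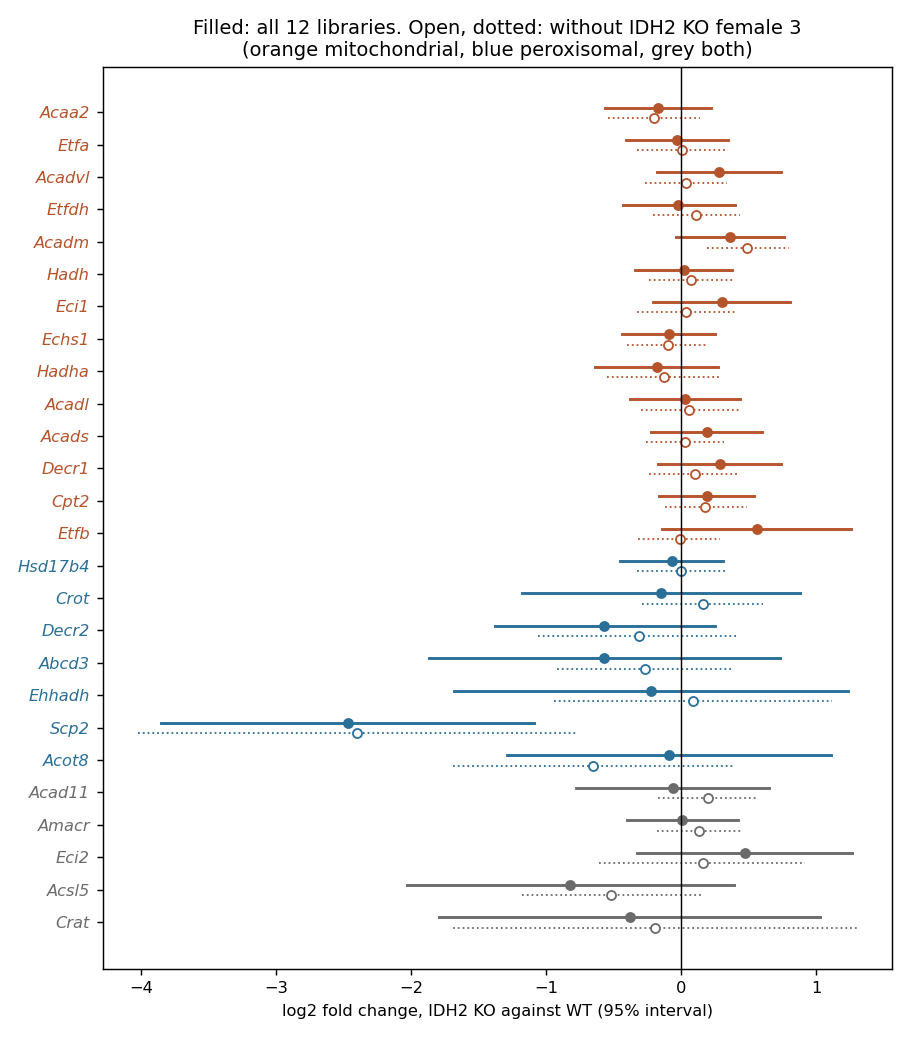
Log2 fold change of the 26 tested members between IDH2 KO and WT (positive is higher in IDH2 KO) with 95% intervals, from all 12 libraries (filled) and without IDH2 KO female 3 (open, dotted). Intervals of mitochondrial members are narrow around 0, those of most peroxisomal members are wide, and only the intervals of Scp2 lie below 0 in both fits, while that of Acadm lies above 0 without IDH2 KO female 3.

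Among the tested mitochondrial members the data bounded any change tightly. The 95% interval lay within a 2-fold change in either direction for 13 of the 14, compared with 3112 of the 7618 genes, and the standard errors had a median of 0.19 on the log2 scale. The interval lay within 2-fold for all 14 without IDH2 KO female 3, with a median standard error of 0.15. Echs1, the short chain enoyl-CoA hydratase, had the smallest error, with a log2 fold change of -0.09 ± 0.16 (SE, 95% interval -0.44 to 0.25). Acaa2 differed by -0.17 ± 0.18, Etfa by -0.03 ± 0.18, and Acadvl by 0.28 ± 0.22, which became 0.04 ± 0.14 without IDH2 KO female 3. The long chain dehydrogenase Acadl, the short chain hydroxyacyl-CoA dehydrogenase Hadh and Etfdh lay within 0.03 of 0 with all libraries and at 0.06, 0.07 and 0.11 without that library. From Cpt2 (0.19 ± 0.17) to the thiolase Acaa2, no tested mitochondrial member had a 95% interval that left out 0 in the fit of all 12 libraries. Cpt1a and Hadhb, with 10 and 0 reads, were not tested, so their parts of the pathway were not covered.

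Acadm, the medium chain acyl-CoA dehydrogenase, had the lowest p of the mitochondrial members. In WT libraries it ranged from 187 to 306 CPM with a median of 285. In IDH2 KO libraries it was at 364, 349, 205, 349 and 417 CPM (females 1 to 3, then males 1 and 2). Apart from female 3 the IDH2 KO libraries lay above the WT range, an order whose share over all genes was not counted. The log2 fold change was 0.36 ± 0.19 (SE, adjusted p = 0.773), and without IDH2 KO female 3 it was 0.49 ± 0.15 (adjusted p = 0.258), so Acadm was not called in either fit.

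Etfb and Decr1 were examples in which a single library set the value. Etfb, the beta subunit of the electron transfer flavoprotein, ranged from 31.7 to 45.1 CPM in WT libraries with a median of 38.1, and was at 44.6, 34.5, 152, 34.7 and 33.3 CPM in the IDH2 KO libraries. Its log2 fold change of 0.56 ± 0.33 (adjusted p = 0.791) became -0.01 ± 0.14 without IDH2 KO female 3. Decr1, the mitochondrial dienoyl-CoA reductase needed for polyunsaturated chains, ranged from 155 to 256 CPM in WT (median 234) and was at 243, 216, 400, 212 and 232 CPM in IDH2 KO libraries. The groups overlapped apart from the library at 400, and the log2 fold change was 0.29 ± 0.21 (adjusted p = 0.821), or 0.10 ± 0.16 without it.

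The peroxisomal members were far less precisely measured. All of those tested except Hsd17b4 also had 2 or more RefSeq transcripts, and the part of transcript number in this spread was not tested. The 95% interval lay within a 2-fold change for 1 of the 7 tested, Hsd17b4, at -0.07 ± 0.18, and the median standard error was 0.56. The biological coefficient of variation estimated by edgeR had a median of 62.7% for the peroxisomal members, 26.3% for the mitochondrial and 42.8% for all genes, and these became 38, 20.5 and 33% without IDH2 KO female 3. All 7 log2 fold changes were below 0, from -0.07 to -2.47. Without IDH2 KO female 3, with Acaa1b also tested, 3 of 8 were above 0 and 5 below, with a median of -0.13. Acaa1b, at 1.05 ± 0.58, was 1 of these 3, beside Crot and Ehhadh. This median is of another set than the -0.22 of the 7 members with all libraries, so the change between them cannot be laid to the library. Without WT male 2, 2 of 7 were above 0, Ehhadh at 0.13 and Acot8 at 0.14, with a median of -0.07 instead of -0.22. The common direction over the peroxisomal members hence rested on these libraries for part of the genes.

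Scp2 was the peroxisomal member with the largest difference. The gene (GRCm38 chr4:108043839-108144998, minus strand) encodes, from alternative starts, a peroxisomal thiolase for branched chains and the sterol carrier protein. In WT females it was at 1.39, 1.41, 1.33 and 0.464 CPM (27, 40, 27 and 10 reads), and in IDH2 KO females at 0.334, 0.456 and 0.074 CPM (8, 8 and 1 reads). In WT males it was at 3.73, 31.8 and 5.61 CPM (63, 788 and 84 reads), and in IDH2 KO males at 0.716 and 2.7 CPM (16 and 52 reads). Within each sex every IDH2 KO library lay below every WT library. Scp2 was the only 1 of the 26 members with this order, which 0.879% of all genes showed, and 0 members showed the reverse order, against 0.551% of all genes.

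The log2 fold change of Scp2 was -2.47 ± 0.65 (SE, 95% interval -3.85 to -1.09), with an adjusted p of 0.241 in edgeR, above the threshold. The adjusted p was 0.00532 in DESeq2 and 2.94e-06 in edgeR without a filter on low counts, both below it. Each of these settings also called more genes in all than the main fit. Over the 12 fits that each left out 1 library, the log2 fold change ran from -2.73 to -1.72 and the adjusted p from 0.136 to 0.671. Without WT male 2, the library at 31.8 CPM, it was -1.72 ± 0.49 (adjusted p = 0.436). The difference was thus of 1 sign in all of these fits, and whether it passed the threshold depended on the method. Scp2 had 1124 reads over the 12 libraries, so the levels in IDH2 KO females rest on a few reads each.

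**Figure D3:**
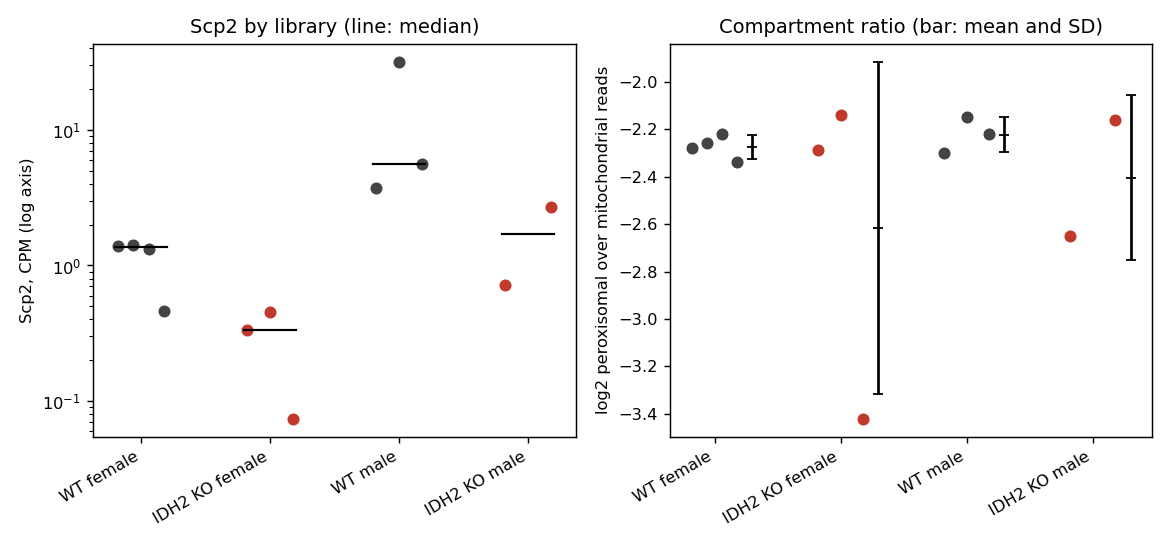
Left, Scp2 in CPM (log axis) in each library by genotype and sex with the group median as a line. Right, log2 of peroxisomal over mitochondrial reads in each library with the mean and SD of each group. IDH2 KO libraries of each sex lie below the WT libraries for Scp2 (0.074 to 0.456 against 0.464 to 1.41 CPM in females), while the ratio differs from the WT libraries mainly for IDH2 KO female 3 (-3.42) and male 1 (-2.65).

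Decr2, which is peroxisomal, and Acsl5, of both compartments, came after Scp2, Acadm and Etfb in order of p. Decr2 ranged from 51.7 to 163 CPM in WT libraries with a median of 63.9, and was at 76.4, 60.6, 18.6, 51.4 and 83.9 CPM in the IDH2 KO libraries. Acsl5, an acyl-CoA synthetase that activates long chains, ranged from 2.28 to 7.74 CPM in WT (median 3.67) and was at 2.75, 3.7, 0, 2.73 and 2.02 CPM in IDH2 KO libraries. The groups overlapped for both genes. The log2 fold change was -0.57 ± 0.38 for Decr2 (adjusted p = 0.81) and -0.82 ± 0.57 for Acsl5 (adjusted p = 0.81). These became -0.31 ± 0.34 and -0.52 ± 0.31 without IDH2 KO female 3.

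The remaining peroxisomal members gave wide intervals. Ehhadh, the bifunctional enzyme for straight and dicarboxylic chains, differed by -0.22 ± 0.69, Abcd3, the transporter that brings branched chains and bile acid precursors into peroxisomes, by -0.57 ± 0.61, and Crot by -0.15 ± 0.48. Acot8, a peroxisomal thioesterase that releases free acids, differed by -0.09 ± 0.56 on 398 reads in all. The 95% intervals of Ehhadh (-1.68 to 1.24) and Acot8 (-1.29 to 1.11) included changes of 2-fold in either direction, and those of Abcd3 (-1.87 to 0.73) and Crot (-1.18 to 0.88) included a 2-fold fall but not a 2-fold rise. Without IDH2 KO female 3 the intervals of Crot (0.16 ± 0.21, -0.29 to 0.61) and Abcd3 (-0.27 ± 0.31, -0.92 to 0.39) lay within 2-fold, while Ehhadh was at 0.09 ± 0.47 and Acot8 at -0.65 ± 0.49. Among members of both compartments, Amacr was the tightest at 0.01 ± 0.19, Acad11 stood at -0.06 ± 0.33, Eci2 at 0.47 ± 0.38, and the carnitine acetyltransferase Crat at -0.38 ± 0.66 on 74 reads. Without the same library Amacr was at 0.13 ± 0.15, Acad11 at 0.20 ± 0.17, Eci2 at 0.16 ± 0.35 and Crat at -0.19 ± 0.71.

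**Figure D4:**
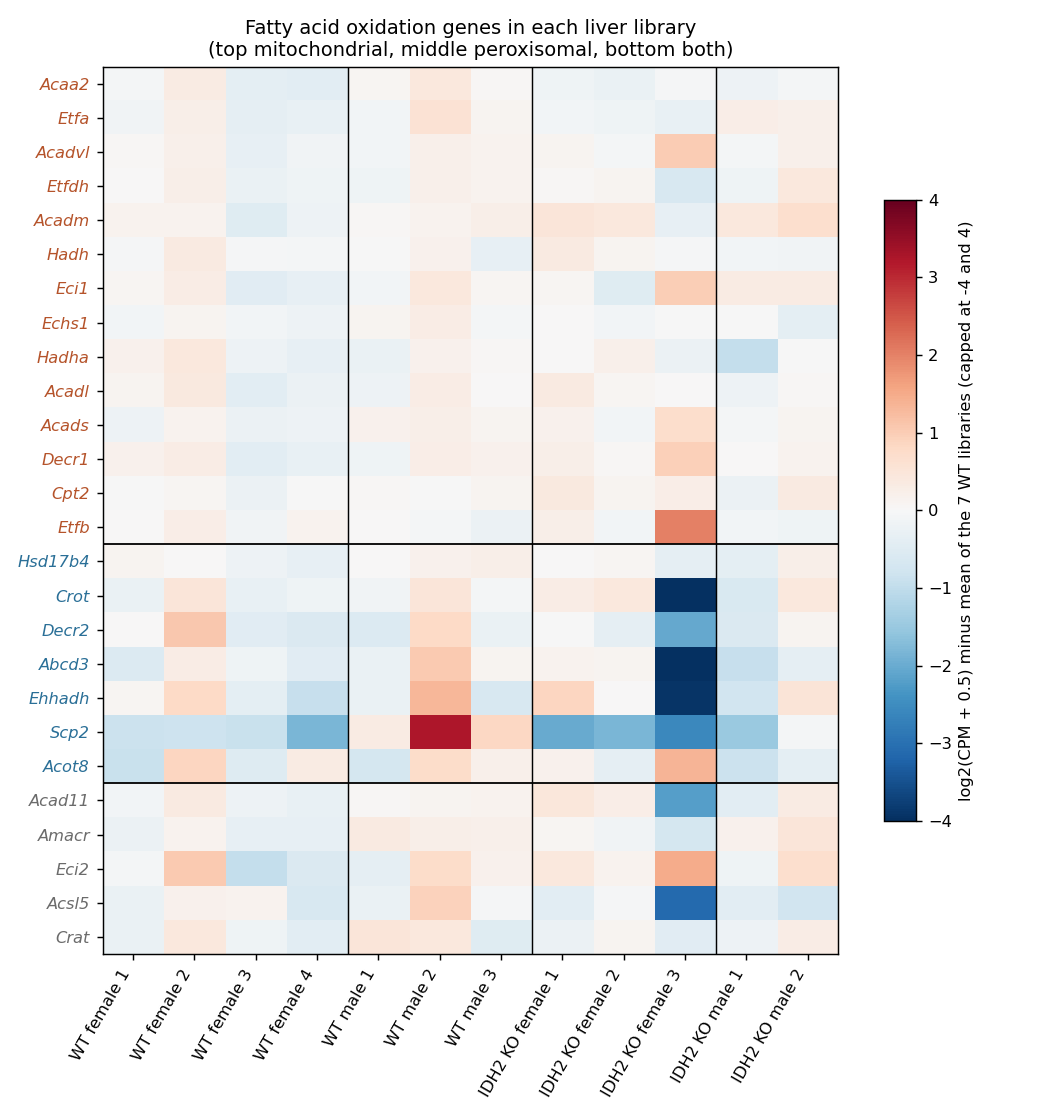
Each square gives the log2(CPM + 0.5) of a member in a library minus the mean of the 7 WT libraries, with mitochondrial members above, peroxisomal members in the middle and members of both compartments below, and libraries ordered by group. The column of IDH2 KO female 3 holds the extremes, low for Crot, Abcd3, Ehhadh and Acsl5 and high for Etfb, and WT male 2 is high for Scp2.

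The balance of the compartments was next described as the log2 ratio of summed peroxisomal to summed mitochondrial reads, which does not depend on scaling between libraries. In WT it was -2.25 ± 0.06 (SD, n = 7, range -2.34 to -2.15) and in IDH2 KO it was -2.53 ± 0.54 (n = 5). IDH2 KO libraries were at -2.29, -2.14, -3.42, -2.65 and -2.16, so that 3 of them lay beside the WT libraries. Without IDH2 KO female 3 the mean was -2.31 ± 0.24. As a share of the reads of both compartments, peroxisomal reads made up 16.5 to 18.4% in WT libraries, 8.57% in the library of IDH2 KO female 3 and 13.7% in that of male 1. Hsd17b4 alone supplied 52.2 to 68.4% of the peroxisomal reads in the WT libraries and 92% in IDH2 KO female 3. The ratio of summed reads was -2.28 ± 0.05 in WT females and -2.22 ± 0.07 in WT males. Its narrow range held only with Hsd17b4 in the sum. Without that gene the ratio ran from -3.93 to -3.26 over the WT libraries and was -7.05 in IDH2 KO female 3, -4.25 in male 1 and -3.61 to -3.51 in the other IDH2 KO libraries. With equal weight for each tested member, as a difference of mean log2(CPM + 0.5), it ran from -3.49 to -2.26 over the WT libraries.

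IDH2 KO female 3 was the lowest of the 12 libraries for 9 of the 26 members (34.6%) and the highest for 7 (26.9%), shares close to the 36.0 and 25.0% of all genes. The members were divided by compartment. It was lowest for 5 of 7 peroxisomal members and for 1 of 14 mitochondrial members, Etfdh, and highest for 1 and 5 of them. Abcd3 had 2 reads (0.148 CPM) there and 10.3 to 41.1 CPM elsewhere. Crot was at 10.6 CPM against 119 to 256, and Ehhadh had 0 reads against 3.58 to 18.6 CPM, at least 16.1-fold below the lowest of the others with 3 reads as the floor of that library. Acot8 was the exception among peroxisomal members, at 4.36 CPM against 0.515 to 2.96. The 5 peroxisomal members that were lowest in this library each had 2 RefSeq transcripts, and the part of transcript number was not tested.

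Most mitochondrial members of the same library were level or high. Acadvl was at 900 CPM against 354 to 512 in the other libraries, Eci1, the mitochondrial enoyl-CoA isomerase, at 237 against 86.2 to 162, and Acads, the short chain dehydrogenase, at 254 against 133 to 181. Acaa2, Echs1, Acadl and Hadh lay within 0.07 of the mean of the other 11 libraries on the log2 scale. Low among them were Etfdh at 229 CPM against 298 to 484, Acadm at 205 against 187 to 417 and Etfa at 267 against 254 to 489. Members of both compartments were also divided, with Acad11 at 65.6 CPM against 228 to 421, Acsl5 at 0 reads, and Eci2 at 45 CPM against 7.99 to 33.1.

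Transcript length moved with these values. Over the 5933 tested protein-coding genes with a length (98.9% of those in RefSeq), the median log2 difference of IDH2 KO female 3 from the mean of the other 11 libraries was 0.76 for transcripts under 1 kb, 0.24 for 1 to 2 kb, -0.35 for 2 to 3 kb, -0.82 for 3 to 4 kb and -0.92 over 4 kb. The same medians in each of the other libraries lay between -0.45 and 0.27. The tested peroxisomal members had a median transcript of 2.68 kb and the mitochondrial members of 1.89 kb. Within the class of 2 to 3 kb, the 5 peroxisomal members had a median of -2.07 (-4.09 to -0.37) and the 5 mitochondrial members a median of 0.22 (-0.69 to 1.00), where the 10th to 90th percentile of all genes of that class ran from -1.96 to 1.11. Base composition also moved with the values, with medians of -0.98 for transcripts under 44% GC and 0.41 for those over 56%. Decr1 and Crot, with transcripts of 2.96 and 3 kb and 44.4 and 44.1% GC, were at 0.90 and -4.09. They were picked after their values were seen and had 1 and 2 RefSeq transcripts, so they are given as a description only. The part of length, base composition, transcript number and genotype in the values of IDH2 KO female 3 was not tested.

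**Figure D5:**
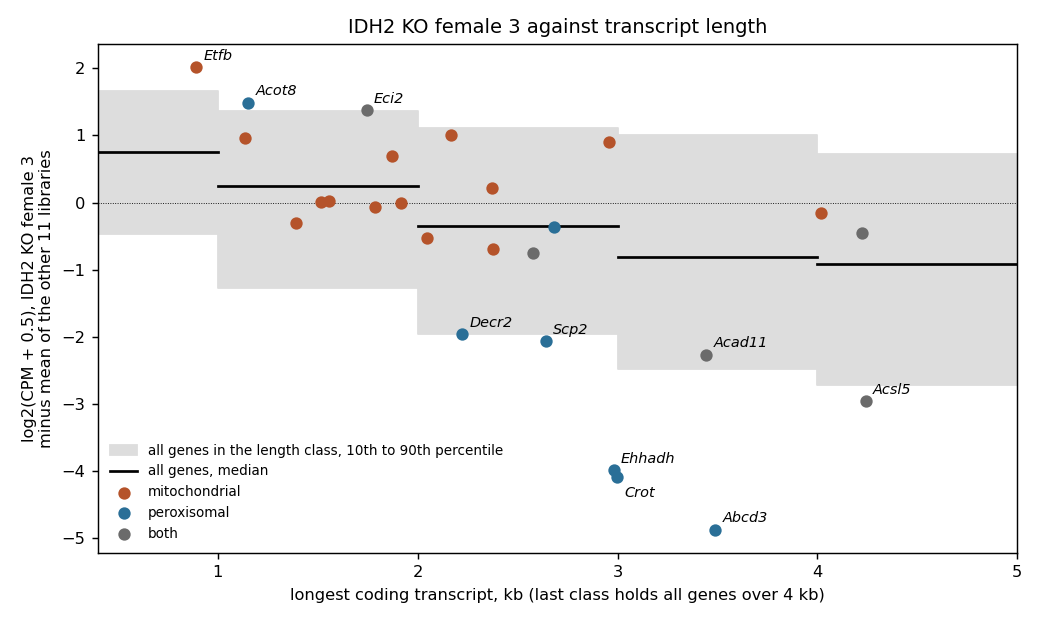
Difference of IDH2 KO female 3 from the mean of the other 11 libraries on the log2(CPM + 0.5) scale against transcript length in kb for the 26 tested members, over the median (line) and the 10th to 90th percentile (grey) of all protein-coding genes in each length class. The medians fall from 0.76 to -0.92 with length, and 5 members lie under the grey bands, Crot, Ehhadh and Abcd3 at -4.09, -3.99 and -4.88 and, nearer the edge, Acsl5 at -2.96 and Scp2 at -2.07. Etfb at 2.02, Acot8 at 1.49 and Eci2 at 1.38 lie over the bands.

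Within females, 0 of 27 members were called between IDH2 KO and WT (all genes 0.174%), and within males also 0 (all genes 0.0925%). Unadjusted p values under 0.05 were reached by Etfb and Scp2 in females and by Scp2 in males, where 5.25 and 4.27% of all genes reached them. Scp2 differed by -1.92 ± 0.85 in females (adjusted p = 0.93) and by -2.99 ± 0.94 in males (adjusted p = 0.764). Without WT male 2 the value in males was -1.44 ± 0.77. With IDH2 KO female 3 left out, 0 members were called in females (all genes 0.206%) or in males (all genes 0.321%). In females Acadm (0.55 ± 0.20) was then the 1 member at an unadjusted p under 0.05 (all genes 6.40%), while Scp2 was at -1.54 ± 1.05 and Etfb at 0.01 ± 0.20. In males Abcd3 (-1.02 ± 0.37) and Acsl5 (-1.01 ± 0.44) joined Scp2 (-3.00 ± 0.96), where 8.68% of all genes passed. With WT male 2 left out instead, and IDH2 KO female 3 kept, the values in males were -0.54 ± 1.06 for Abcd3 and -0.49 ± 0.99 for Acsl5. The test of the difference between the sexes called 0 members and 0% of all genes, with 0 members and 3.17% of genes at an unadjusted p under 0.05 in edgeR. That test, without IDH2 KO female 3, called 0 members and 2 genes (0.0229%), with 1 member, Abcd3, at an unadjusted p under 0.05 (all genes 5.42%). For Abcd3 the genotype difference in males minus that in females was then -1.34 ± 0.49 on the log2 scale (adjusted p = 0.861). It was -0.27 ± 1.33 with WT male 2 left out instead and IDH2 KO female 3 kept. DESeq2 called 0 members in females, in males and in the test of the difference.

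The lowest p values in that test belonged to Acot8, Etfb and Acads. Acot8 was at 0.515, 2.96, 0.838 and 1.9 CPM in WT females and 1.63, 0.969 and 4.36 CPM in IDH2 KO females, and at 0.652, 2.62 and 1.67 CPM in WT males and 0.537 and 0.933 CPM in IDH2 KO males. Its difference between the sexes was -1.68 ± 1.08 on the log2 scale, with overlapping groups, and -0.91 ± 0.98 without IDH2 KO female 3. Etfb, whose values are given above, differed by -0.95 ± 0.62, and by -0.04 ± 0.29 without IDH2 KO female 3. Acads was at 134, 170, 133 and 135 CPM in WT females, 175, 144 and 254 in IDH2 KO females, 175, 181 and 167 in WT males and 147 and 166 in IDH2 KO males. Its difference between the sexes was -0.54 ± 0.36 (adjusted p = 1), or -0.32 ± 0.27 without IDH2 KO female 3.

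Between WT males and WT females, 1 of 27 members was called (all genes 0.659%), Scp2, which was higher in males with a log2 fold change of 3.56 ± 0.73 (SE, 95% interval 1.99 to 5.13, adjusted p = 0.0399). It was at 3.73 to 31.8 CPM in WT males and at 0.464 to 1.41 CPM in WT females. WT male 2 at 31.8 CPM decided the size, and without it the value was 2.00 ± 0.63 (adjusted p = 0.387). The call was also lost without any 1 of the WT females 1 to 4 or of the IDH2 KO females 1 to 3, with adjusted p values from 0.0511 to 0.186. DESeq2, which also called more genes in all than the main fit, called Scp2 as well, with an adjusted p of 7.05e-05. WT male 2 was also the highest of the 12 libraries for 7 of the 26 members and for 12.7% of all genes. Hepatocyte markers summed to 148000 to 220000 CPM in WT females and 115000 to 150000 in WT males, stellate markers to 31 to 66.8 and 8.28 to 22.3 (Dcn at 0), and cholangiocyte markers to 62.1 in WT male 1 and 0.246 to 4.24 in the other WT libraries (Spp1 at 0). Of 5 tested erythroid genes 1 was called higher in males, and 2 were lower at an unadjusted p under 0.05 in edgeR. At that level 2 of 5 Kupffer cell genes and 1 of 5 lymphocyte genes were lower. So were 1 of 5 hepatocyte and 3 of 4 stellate genes, and 2 of 3 cholangiocyte genes were higher (all genes 5.89% in either direction). The part of these cells in the value of Scp2 was not tested.

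No other member was called between the sexes. Of the members that also passed the filter of the genotype comparison, Scp2 was the only 1 at an unadjusted p under 0.05 in edgeR, where 5.89% of all genes were. Amacr passed as well without IDH2 KO female 3, where 10.4% of all genes did, and 0 members were called (all genes 1.37%). The median log2 fold change over the 27 members was 0.18 (23 above 0 and 4 below), compared with 0.01 over all genes, and without WT male 2 it was 0.05. Acaa1b, at 0.257, 0.0704, 0.0493 and 0.139 CPM in females and 0.296, 1.81 and 0.334 CPM in males, had 11 and 55 reads in these libraries, 45 of them in WT male 2. With all 12 libraries it passed the filter only in the fit of the 4 groups, and without IDH2 KO female 3 also in the genotype comparison. It did so through 28 and 34 reads in IDH2 KO males and those of WT male 2, against 0 to 7 in every other library. Its difference is therefore given as a description. Reads of this gene and Acaa1a may be hard to assign. Amacr was at 26, 34, 24.3 and 24.4 CPM in females and 39.6, 36.5 and 35.8 CPM in males, and differed by 0.45 ± 0.26 (adjusted p = 1). Etfa differed by 0.33 ± 0.24, Acads by 0.28 ± 0.23 and Acaa2 by 0.28 ± 0.24, all with an adjusted p of 1. For 13 of the 14 mitochondrial members the 95% interval lay within a 2-fold difference between the sexes.

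Genes that work with the members were read from a further list of 23 genes of fatty acid oxidation. Of these, 18 were tested between genotypes and 0 were called (all genes 0.381%), with 1 at an unadjusted p under 0.05 in edgeR (all genes 6.71%). Ppara differed by -0.22 ± 0.35 (adjusted p = 0.932), or 0.02 ± 0.25 without IDH2 KO female 3. Of 16 genes of peroxisome assembly 8 were tested and 0 called, with 0 at an unadjusted p under 0.05 in edgeR. Of 10 regulators 3 were tested and 0 called, with 1, Rxra, the partner receptor of PPARα, at an unadjusted p under 0.05 (-1.88 ± 0.63, adjusted p = 0.489). For both lists the shares over all genes are those given for the first list. Rxra had only 8 to 17 reads in each WT library and 0 to 7 in each IDH2 KO library. Between WT males and females 0 of 18 genes of the first list were called (all genes 0.659%). Of the same genes 3 were higher in males at an unadjusted p under 0.05 in edgeR (all genes 5.89% in either direction). These were Phyh, which starts the breakdown of branched phytanic acid (1110 to 1680 CPM in females, 2130 to 2940 in males, log2 fold change 0.90 ± 0.23, adjusted p = 0.161), the peroxisomal coenzyme A hydrolase Nudt7 (1.64 ± 0.45, adjusted p = 0.227) and the peroxisomal carrier Slc25a17 (0.89 ± 0.28, adjusted p = 0.395). Without IDH2 KO female 3 these 3 genes passed the threshold, with the same log2 fold changes, standard errors of 0.18, 0.37 and 0.18 and adjusted p values of 0.0183, 0.0369 and 0.0175 in edgeR. In that fit 1.37% of all genes passed the threshold, against 0.659% with all 12 libraries. Without WT male 2 instead, none of these 3 genes passed it. Phyh was then at 1.02 ± 0.25, Nudt7 at 1.56 ± 0.51 and Slc25a17 at 0.78 ± 0.32, with adjusted p values of 0.138, 0.428 and 0.655 in edgeR.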

How the data were processed

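Liver RNA of 12 mice was sequenced as 50 bp single-end Illumina HiSeq reads from TruSeq libraries made with 1 µg of total RNA. Counts of reads for each gene were deposited as whole numbers by the authors, with a filtered table of the same counts that lists 27 of the members. FastQC and GRCm38.p5 come from the submitters' processing notes. The aligner, the counter and the rule for shared reads were not given in any source used. The study tested log2 RPM without a sex term. Here the deposited counts were fitted in edgeR 4.0.16 (R 4.3.3) by the quasi-likelihood test with robust estimation, TMM scaling, filterByExpr (minimum count 10, minimum total 15) and Benjamini-Hochberg adjustment over all genes tested, with a threshold of 0.05. The genotype comparison used sex and genotype, and other contrasts 4 group means. P values measure the spread between mice. DESeq2 1.42.0, other scalings, no filter, no sex term, a replicate block, and fits without each library were tried. CPM are TMM-scaled, and log2 CPM used a pseudocount of 0.5. Gene positions and transcript lengths are those of GENCODE M21 on GRCm38, and transcript numbers those of RefSeq. All libraries had groups, and no pair was a duplicate. The fit was tested on simulated data.

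The members and lists were chosen with earlier results of these data known. Library values are given for up to 6 members of lowest p between genotypes and between WT sexes and up to 3 in the test of their difference, and levels for the 3 highest members per compartment. Values of some genes of the further list are not reported here. Other members are given by fold change, range or count, except that Ehhadh, Abcd3, Crot, Acadvl, Eci1 and Acad11 were singled out in IDH2 KO female 3, and Rxra between genotypes, after their values were seen.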

Additional observations from a re-analysis of the deposited data

Results flagged for a closer look

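Groups of 4 to 7 libraries were searched for a library far from the others, where chance gives about 1 in 20 for separate groups. The groups share libraries, so their number is a description and cannot be compared with that rate. Such a library was held by 13 of 78 tested groups of values. IDH2 KO female 3 accounted for 5 of these, all high among the IDH2 KO libraries, with Acadvl at 900 CPM (next 512), Acads at 254 (next 175), Decr1 at 400 (next 243), Etfb at 152 (next 44.6) and Acot8 at 4.36 (next 1.63). IDH2 KO male 2 was high for Scp2 at 2.7 CPM, with the next library at 0.716. WT male 2 was high among the WT libraries for Scp2 at 31.8 CPM (next 5.61), Abcd3 at 41.1 (next 24.6) and Acsl5 at 7.74 (next 4.33). Among WT females, WT female 2 was high for Acads at 170 CPM (next 135), Hadh at 309 (next 233) and Crot at 256 (next 161), and WT female 4 was low for Scp2 at 0.464 (next 1.33). The low values of IDH2 KO female 3 for Crot, Abcd3 and Ehhadh are given above and did not meet the same criterion on the CPM scale.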

How the results depend on the processing

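Without a filter on low counts, 1 member (Scp2) was called between genotypes and 1 (Scp2) within males, and DESeq2 called 1 (Scp2) between genotypes. The number called between genotypes, within each sex and between the sexes' genotype effects stayed at 0 when each library was left out, and between WT males and females it ran from 0 to 1. The difference in the compartment ratio, -0.26 on the log2 scale as the mean of the differences within each sex, was -0.76 as a mean of log2 CPM per compartment and ran from -0.38 to -0.06 with libraries left out. Where IDH2 KO male 1 or 2 was left out, the lone library of the arm was assumed to vary like the others. Of the 26 members between genotypes, 14 kept their sign under all 19 alternatives. Without scaling factors Acadl was at -0.01, Hadh at -0.02 and Amacr at 0, Amacr was at -0.01 without a filter, and Acot8 was at 0.06 without a sex term. With libraries left out, members whose sign changed ran as follows, as log2 fold changes: Acadl -0.05 to 0.11, Hadh -0.05 to 0.08, Ehhadh -0.71 to 0.13, Hsd17b4 -0.16 to 0.03, Etfa -0.09 to 0.05, Etfb -0.01 to 0.70, Etfdh -0.14 to 0.11, Crat -0.65 to 0.02, Crot -0.37 to 0.16, Acad11 -0.27 to 0.20, Acot8 -0.65 to 0.19 and Amacr -0.08 to 0.13.

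Replicate numbers did not pair the mice: deviations of same-numbered IDH2 KO and WT libraries correlated at -0.18 to 0.00 in females and 0.02 to 0.08 in males, those of WT females and males 1 to 3 at -0.04, 0.48 and 0.06, and not every library matched best with its own number. A replicate block left 0 members called between WT males and females (Scp2 2.68, adjusted p = 0.257 in edgeR; WT female 2 and male 2 had 22.8 and 26.5% of reads from the mitochondrial genome against 39.9 to 49.8% in the other WT libraries), changed no other call of a member, and put Acadl at -0.04, Hadh at -0.04, Acot8 at 0.14 and Amacr at -0.08 between genotypes. Over all genes, calls between genotypes were 13 higher and 16 lower, 62 and 143 without a filter, 29 and 35 in DESeq2, and 8 higher without a sex term. They were 8 and 7 in females (42 and 42 without a filter, 24 and 28 in DESeq2), 5 and 3 in males (38 and 113, 18 and 23, and 2 higher with the block, with 5 lower by RLE or without mitochondrial genes), 0 and 0 for the difference (16 and 32, 6 and 1, and 1 higher without scaling), and 25 and 32 between WT males and females (164 and 87, 47 and 64, 14 and 18 with the block). Depth limits Scp2, Acot8, Acsl5, Crat and Acaa1b, which had under 1200 reads each. It also limits Rxra of the regulators, which had 17 reads or fewer in every library.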
